A study of Bos taurus with 2 samples.

Results

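Chromosome 18 of cattle held 831 H3K4me3 peak regions in the longissimus dorsi (LD), the loin muscle, of Angus steers. The regions were all peaks that the deposited tender and tough peak lists place on chromosome 18, 759 tender and 707 tough peaks, joined where they overlapped by at least 1 bp. In the whole series there were 14264 such regions, made from 12930 tender and 11535 tough peaks, and 13081 of them lay on the other 28 autosomes. H3K4me3 was profiled by ChIP-Seq, in which DNA fragments pulled down with an antibody against the mark are sequenced and stretches rich in reads are called as peaks. All animals were purebred Aberdeen Angus steers of a single herd, harvested at about 12 months of age, and groups were formed by the Warner-Bratzler shear force (WBSF), a reading of how hard a cooked sample of the aged steak is to shear. The tender library was made from equal aliquots of chromatin of the 4 steers with the lowest WBSF (6.77 ± 0.56 kg), and the tough library from those of the 5 steers with the highest (19.93 ± 0.39 kg), out of 19 steers. The kind of error behind these 2 values is not given in the sources used here. Each group was therefore 1 pooled library with no replicate, so that the variation among steers cannot be seen, no test of a group difference was possible and every difference below is a description of these 2 libraries.

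Trimethylation of lysine 4 on histone H3 is placed by the SET1 and MLL families of methyltransferases and is concentrated around the start sites of genes that are active or ready for use. It is recognised by proteins of the transcription machinery, and it is found at most CpG island promoters, so a map of H3K4me3 follows the map of genes closely. Narrow peaks are typical of promoters used in many tissues, whereas wide ones are often found at genes that define a cell type. Cattle autosomes have the centromere at one end, by convention where the numbering starts, so low positions on chromosome 18 are near the centromere and high positions near the telomere. In the RefSeq gene table at hand chromosome 18 carries several genes of muscle, among them RYR1 (the calcium release channel of the sarcoplasmic reticulum), CKM (muscle creatine kinase), GYS1 (muscle glycogen synthase), TNNT1 (slow skeletal troponin T), MYBPC2 (fast myosin-binding protein C) and CAPNS1 (the small subunit of the calpains). That table is for another genome build than the peak lists, so no peak was assigned to a gene and the tissue could not be checked against marker genes.

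Each peak came with a SICER score, in which every 200 bp window adds more the less likely its read number is under a Poisson model with the mean of the genome, so a higher score stands for more reads than that mean would give. The scores showed a mean of 0.157 reads per window in the tender library and 0.182 in the tough library, a depth ratio of 1.165. Reads per peak could be worked back from the score for 92.2% of tender peaks on chromosome 18 (700 of 759) and 94.8% of tough peaks (670 of 707). These peaks were shallow, the median being 22 reads for tender peaks (quartiles 14 and 33) and 23 for tough peaks. The score lists do not state their genome build, and positions are given as listed, counted from 1. On chromosome X their last peak ended at 148.8 Mb, against 87.9 Mb in the other deposited lists, which are on the bosTau4 build. Positions of the score lists are therefore not to be read as bosTau4 positions.

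Chromosome 18 was one of the most densely marked autosomes. It carried 12.6 regions per Mb over a length of 66.0 Mb (taken as the end of the last peak), against 5.36 per Mb on the other 28 autosomes pooled, a ratio of 2.35. Only chromosome 19 with 15.3 and chromosome 25 with 13.0 regions per Mb were denser, and the sparsest autosome, chromosome 12, had 2.66. Both groups showed this, with 11.5 tender peaks per Mb against 4.85 on the others and 10.7 tough peaks per Mb against 4.33. Peaks covered 2.56% of chromosome 18 in the tender group (1.07% of the other autosomes) and 2.93% in the tough group (1.18%). With 2.63% of the length of the autosomes, chromosome 18 held 5.97% of their peak regions.

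**Figure D1:**
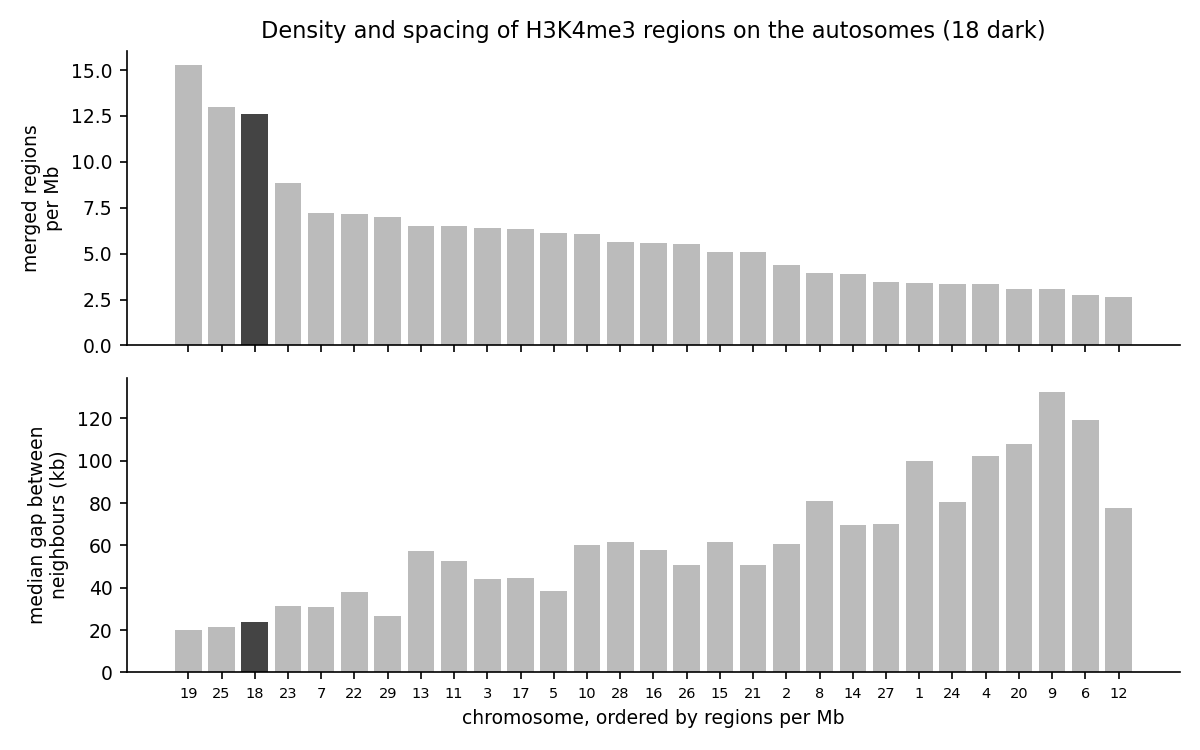
Merged H3K4me3 regions per Mb (upper panel) and median gap between neighbouring regions in kb (lower panel) on the 29 autosomes, ordered by density with chromosome 18 dark. Chromosome 18 has 12.6 regions per Mb, behind chromosomes 19 (15.3) and 25 (13.0), and its median gap of 23.9 kb is longer than theirs and shorter than all others.

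The peaks were not spread evenly along the chromosome. In steps of 5 Mb from the start the numbers of regions were 37, 29, 83, 28, 25, 24, 19, 59, 29, 115, 142, 122 and 82, and the last 0.99 Mb held another 37. The stretch from 45 to 60 Mb was the richest, and between 10 and 15 Mb there was a smaller rise. Of the 65 full bins of 1 Mb, 10 held no region, 21 held 1 to 9, 19 held 10 to 19 and 15 held 20 or more. The 15 fullest of these bins contained 442 regions, or 53.2% of all, and 14 of them lay beyond 34 Mb. The exception was the bin from 14 to 15 Mb with 26 regions. On the other autosomes only 4.69% of bins reached 20 regions, against 23.1% on chromosome 18, and 21.8% were empty, against 15.4%.

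The fullest bin, from 56 to 57 Mb, had 43 regions, built from 40 tender and 38 tough peaks, and peaks of either group covered 15.7% of it. It was followed by the bins from 53 to 54 Mb (40 regions), 55 to 56 Mb (36), 54 to 55 Mb (35) and 62 to 63 Mb (31). The first 4 of these 5 bins were adjacent. The fullest 10% of the bins, rounded up to 7 bins, held 30.4% of the regions in full bins. For each other autosome the fullest 10% of its own bins was taken, 5 to 16 bins. By this share chromosome 18 was 27th highest of 29 autosomes, against 37.2% on the others. The variance of regions per bin was 10.5 times the mean, the 4th highest of 29, so these measures place the chromosome differently. Taken singly, the other autosomes had a median ratio of variance to mean of 6.02. Their pooled bins gave 8.64, a value that also holds the differences in density between chromosomes. The median bin held 10 regions, against 3 on the other autosomes.

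**Figure D2:**
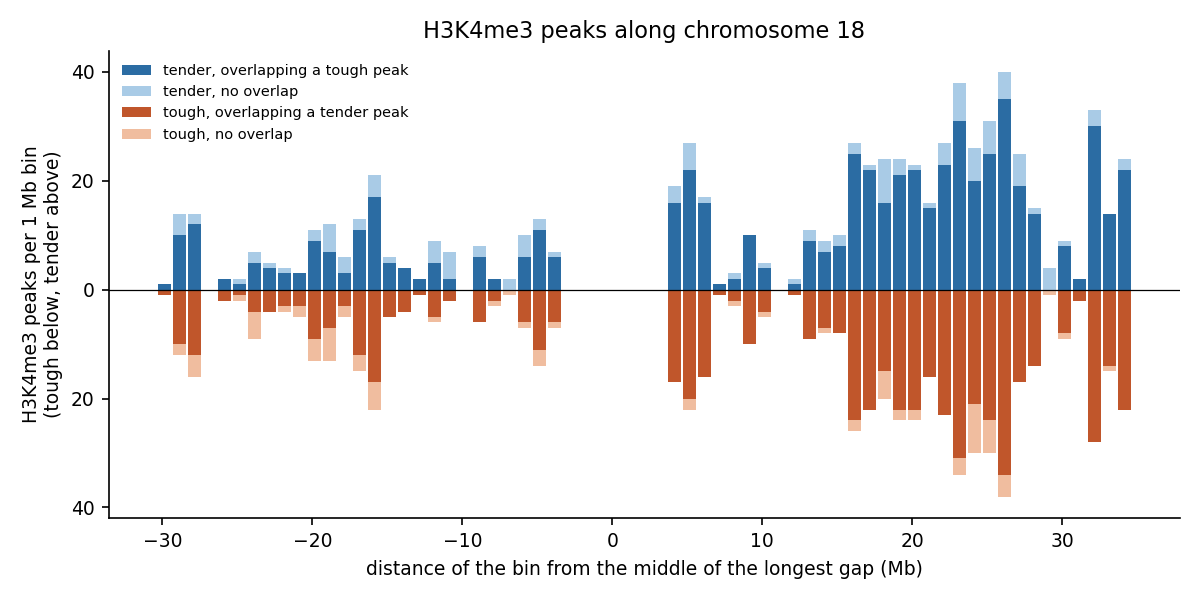
Number of H3K4me3 peaks per full 1 Mb bin along chromosome 18 (horizontal axis, distance in Mb from the middle of the longest gap), tender upwards and tough downwards, with peaks that overlap no peak of the other group in the lighter shade. The 2 groups mirror each other over most bins, the empty middle is the gap of 7.61 Mb, and the fullest bin holds 40 tender and 38 tough peaks.

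The tender and tough maps followed each other closely. Peaks per bin had a Pearson correlation of 0.98 and a Spearman correlation of 0.98 over the 65 bins, which share libraries and the same genome and are given as a description only. The tender group had more peaks in 29 bins, the tough group in 12, and the numbers were equal in 14 of the bins with peaks. The largest excess of tender peaks was 8, in the bin from 57 to 58 Mb with 25 tender and 17 tough peaks. The largest excess of tough peaks was 4, in the bin from 54 to 55 Mb with 26 tender and 30 tough peaks.

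The longest stretch with no peak in either group ran from 26557201 to 34163600, 7.61 Mb, and held the midpoint of the chromosome. On the 29 autosomes it ranked 6th, and the longest of all, on chromosome 11, measured 9.37 Mb. The densest chromosomes had nothing of this size, with longest gaps of 1.81 Mb on chromosome 19 and 2.14 Mb on chromosome 25. On the side of the centromere the gap was bounded by a peak of both groups, from 26554801 to 26556800 with a score of 165.6 and 52 reads in the tender group and from 26554401 to 26557200 with 158.1 and 54 reads in the tough group. On the side of the telomere it was ended by a weak tender peak from 34163601 to 34166000 (score 29.4, 13 reads) that no tough peak overlapped. The next longest gaps ran from 19341201 to 21633400 (2.29 Mb), 2978601 to 4443200 (1.46 Mb), 40920201 to 42059600 (1.14 Mb) and 37117001 to 38182800 (1.07 Mb).

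Away from these empty stretches neighbouring regions lay close together. The median of the 830 gaps was 23900 bp (quartiles 9000 and 59500), 3rd shortest of the 29 autosomes, against 50000 bp on the others, 20200 bp on chromosome 19 and 21600 bp on chromosome 25. Gaps of at least 500 kb, 19 in number, summed to 22.6 Mb and 34.3% of the chromosome, against 57.6% of the other autosomes. To its nearest neighbour a region had a median distance of 12600 bp, against 23400 bp elsewhere. Within 5 kb of another region lay 214 regions (25.8%, against 20.2%), and 43 regions (5.17%, against 16.5%) had none within 100 kb. Of those 43 isolated regions 69.8% were found in both groups (67.0% on the other autosomes), and of those 214 crowded ones 72.9% (66.6%).

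Runs of at least 5 regions with gaps of at most 20 kb were taken as clusters. Chromosome 18 had 27 of them with 181 regions, 21.8% of its regions against 10.6% on the other autosomes, and ranked 4th by this share. A cluster had a median of 6 regions over 61.0 kb, of which peaks covered a median of 33.6%. The clusters took up 1.87 Mb, or 2.83% of the chromosome, against 0.569% of the other autosomes. The largest ran from 55964001 to 56116200 with 14 regions in 152.2 kb, 11 found in both groups, 1 in the tender group only and 2 in the tough group only. The next held 12 regions from 53422001 to 53534800, 11 from 62325001 to 62405800, 9 from 56330801 to 56425600 and 8 from 48397601 to 48506400. All 5 lay on the telomere side of the long gap, as did 23 of the 27 clusters. In clusters 74.0% of regions were found in both groups, close to the 73.9% of the whole chromosome.

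The midpoint of chromosome 18, at 33.0 Mb, fell inside the long gap, and the parts before and after it differed in several measures. The proximal part, nearer the centromere, held 226 regions and the distal part 605, or 72.8%, ranking 3rd of the 29 autosomes (median of the others 60.1%). Leaving out the gap itself, there were 8.51 regions per Mb before it and 19.0 after it. The median gap between neighbours was 40400 bp in the proximal and 20300 bp in the distal part. Scores differed likewise. The median tender score was 56.6 in the proximal and 70.1 in the distal part, and the median tough score 45.6 and 68.0. Taken as distal minus proximal, these differences, 13.5 and 22.4, were the highest of the 29 autosomes in either group. Regardless of sign the tough difference was again the highest, whereas 5 autosomes had a wider tender difference in the opposite direction, chromosome 20 most of all with -26.4. On chromosome 19, the densest autosome, the order was the other way, with medians of 58.0 and 52.9 in the tender group and 64.6 and 54.2 in the tough group. On chromosome 25 it was that of chromosome 18, with 62.6 and 64.3 for tender and 53.2 and 61.9 for tough peaks.

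Peaks called in a single group were also placed unevenly. On all of chromosome 18, 131 of 759 tender peaks (17.3%, 95% exact Clopper-Pearson interval 14.6 to 20.1%) overlapped no tough peak, against 21.9% of tender peaks over the whole series and 22.03% on the other autosomes. Of the 707 tough peaks 86 (12.2%, 9.85 to 14.8%) overlapped no tender peak, against 13.9% over the series and 14.1% on the others. These intervals, like all below, cover counting error only. By the tender share chromosome 18 was 28th of 29 autosomes and by the tough share 23rd. The low tender share was not seen among peaks with at least 2 times the lowest score, at 24.2% against 23.9% on the other autosomes. With equal numbers of peaks in the lists the order of the groups turned, at 11.9% for tender and 14.9% for tough peaks (16.3% and 17.4% on the others). Regions found in both groups made up 614 of the 831 (73.9%, against 68.7%), ranking 3rd.

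The low share of the whole chromosome was that of its distal part. In the proximal part 48 of 185 tender peaks (25.9%, 19.8 to 32.9%) were without a tough overlap, and in the distal part 83 of 574 (14.5%, 11.7 to 17.6%), the lowest distal share of the 29 autosomes. For tough peaks the shares were 43 of 179 (24.0%, 17.96 to 31.0%) and 43 of 528 (8.14%, 5.96 to 10.8%). The proximal tough share was the highest of all autosomes, where the others ranged from 6.48% to 17.9%. Proximal minus distal, the share differed by 11.5 percentage points in the tender group (Newcombe interval 4.92 to 18.7) and by 15.9 points in the tough group (9.62 to 22.9), each the highest signed value of the 29 autosomes. Regardless of sign the tough difference was still the largest, whereas the tender shares of chromosomes 20 (-18.7 points) and 26 (-16.4 points) differed more, in the opposite direction. On the others the median difference was -4.17 points in the tender group and -2.16 points in the tough group, and their highest values were 10.3 and 3.65.

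Weak peaks were more often without overlap on chromosome 18 as elsewhere, and the part of the score in the difference between proximal and distal peaks was not tested. Among chromosome 18 peaks in the lowest quartile of their whole list by score, 56.9% of 167 tender and 39.2% of 181 tough peaks were without overlap, in the next quartile 18.1% and 8.78%, and in the one above it 2.78% and 1.08%. On the other autosomes these shares were 60.8% and 42.8%, 23.9% and 12.5%, and 3.33% and 1.47%. Within the lowest quartile the proximal part had the higher share, 37 of 54 tender peaks (68.5%) against 58 of 113 (51.3%), and 35 of 61 tough peaks (57.4%) against 36 of 120. In the next quartile it was 7 of 41 tender peaks (17.1%) against 23 of 125 (18.4%), the opposite order, and 7 of 46 tough peaks (15.2%) against 6 of 102 (5.88%). When only peaks with at least 2 times the lowest score were kept, the difference between the parts shrank to 5.30 points (-3.68 to 15.5) in the tender and 4.18 points (-2.22 to 13.3) in the tough group. With the same number of peaks taken from each list it was 3.19 points (-2.35 to 10.1) in the tender and 16.8 points in the tough group.

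**Figure D3:**
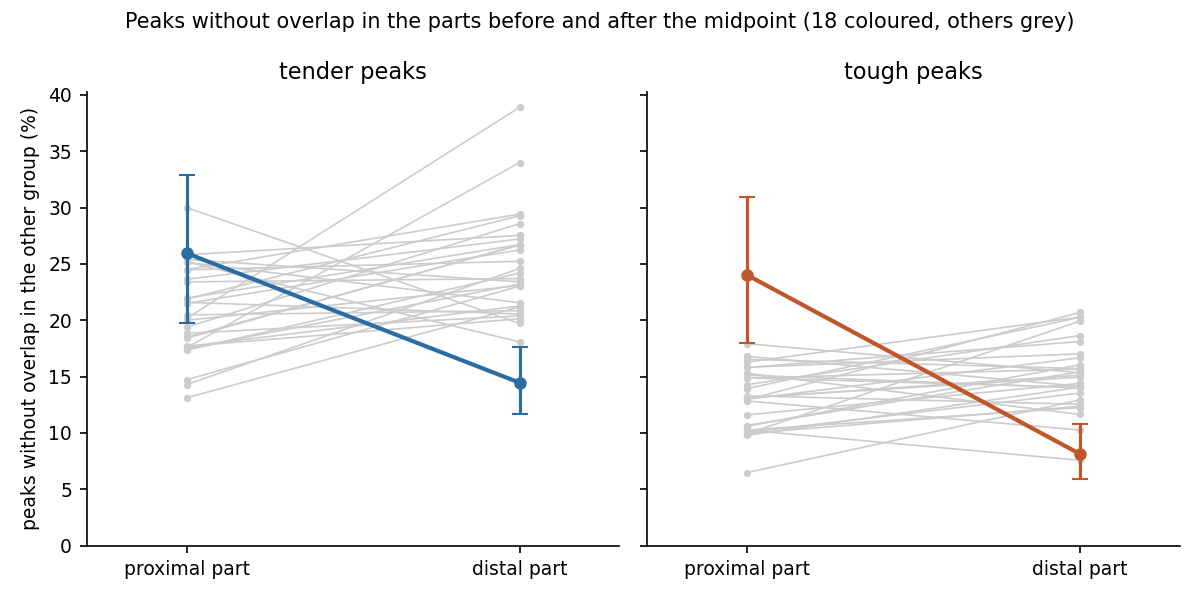
Percentage of tender (left) and tough (right) peaks that overlap no peak of the other group, in the parts of the chromosome before and after its midpoint, for chromosome 18 (coloured, bars are exact 95% intervals for counting error) and the other 28 autosomes (grey), with a line joining the parts of a chromosome. On chromosome 18 tender peaks go from 25.9% to 14.5% and tough peaks from 24.0% to 8.14%, and the proximal tough share lies above all 28 other autosomes.

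The strongest peaks without overlap were moderate in height. In the tender group they ran from 14774801 to 14776200 (score 83.6, 28 reads), 14487801 to 14490600 (71.0, 27 reads), 11292001 to 11298200 (66.0, 30 reads), 64025201 to 64026800 (64.9, 23 reads) and 18538601 to 18540800 (63.4, 23 reads). Of these 5, 4 lay in the proximal part. In the tough group the strongest ran from 56035401 to 56039200 (65.4, 28 reads), only 2600 bp from a tender peak, followed by 10875601 to 10877600 (60.9, 24 reads) and 40917201 to 40920200 (57.2, 25 reads). The last of these was isolated, with the nearest tender peak 233000 bp away, and it stood at the edge of the gap of 1.14 Mb. The remaining peaks were from 49171201 to 49173200 (48.5, 20 reads) and 1737201 to 1741600 (47.5, 23 reads). For comparison, the median was 12 reads for all tender peaks without overlap and 14 for all tough ones, and 26 in either group for peaks with overlap.

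Peak widths on chromosome 18 were those of the rest of the genome. The median tender peak was 2000 bp long (quartiles 1400 and 2800) and the median tough peak 2400 bp (1600 and 3400), with means of 2227 and 2734 bp against 2204 and 2726 bp on the other autosomes. Of the merged regions 82 were at least 5 kb long (9.87%, against 7.95%). Of these 82, 76 were found in both groups, where the share over all regions of the chromosome was 73.9%. A region found in both groups joins peaks of both lists and can be wider for that reason alone. In the distal part lay 72 of the 82, where the share over all regions was 72.8%. Together the 82 made up 20.9% of the covered bases. The widest tender peak ran from 34989401 to 35001200, 11800 bp, where the tough peak from 34990201 to 34998200 was 8000 bp long. The widest tough peak ran from 35471001 to 35482000, 11000 bp, and the tender list had 2 separate peaks there, from 35471001 to 35474200 and from 35475801 to 35478000. Further wide tough peaks lay from 11634401 to 11643800, 9400 bp against 1600 bp in the tender group, and from 36505601 to 36514400, 8800 bp against 2800 bp. At both the score was also higher in the tough group, 86.3 against 38.5 and 109.6 against 54.9. Wide tender peaks of 7800 bp were found from 53387801 to 53395600 and from 56105001 to 56112800, the latter matched by a tough peak of 8000 bp.

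Scores on chromosome 18 were slightly higher than elsewhere. The tender median was 65.8 (quartiles 37.6 and 106.2) against 59.7 on the other autosomes, ranking 2nd of 29, and the tough median 61.5 (36.5 and 96.4) against 57.8, ranking 3rd. The highest tender score, 447.4, belonged to the widest tender peak from 34989401 to 35001200, where the tough score was 286.2. Next came the peaks from 53387801 to 53395600 (368.1 tender, 318.8 tough), 56669001 to 56675400 (346.6 and 349.8), 49372801 to 49379600 (327.6 and 226.9) and 52154601 to 52158000 (296.0 and 170.9). In the tough group the highest score, 393.9, was that of the widest tough peak from 35471001 to 35482000, where the 2 tender peaks summed to 317.2. Another high tough peak from 46655401 to 46661600 scored 325.2, and the tender peak there 237.2. All of these strong peaks were called in both groups, and all lay in the distal part. Neither property set them far apart from other high-scoring peaks. Chromosome 18 had 210 tender and 193 tough peaks in the highest quartile of their whole list by score. Among these, 0 were without overlap in either group, against 0.167% (tender) and 0.0747% (tough) on the other autosomes. The distal part held 175 of the 210 and 162 of the 193.

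A tender and a tough peak that overlapped each other and no other peak formed a pair, and chromosome 18 had 594 pairs. Of these, 350 had the longer peak in the tough group (58.9%, 54.8 to 62.9%), against 59.6% over the series, and 195 in the tender group (32.8%), against 30.5%. Tough minus tender width had a median of 200 bp, against 400 bp on the other autosomes, and a mean of 384.5 bp, against 397.8 bp. Widths come in steps of 200 bp, and over all 29 autosomes pooled the median was again 200 bp, so the medians differ by a single step. The tough peak was at least 2 times as long in 76 pairs (12.8%), against 12.9%, and the tender peak in 22 (3.70%), against 3.26%. By these shares chromosome 18 was close to the whole series. Several peaks of the other list were overlapped by 14 tough peaks (1.98%, against 2.33% on the other autosomes), the widest one among them, and by 7 tender peaks (0.922%, against 0.836%).

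In score the tender peak was the higher in 385 of the 594 pairs (64.8%), against 63.6% over the series. The median log2 ratio of tender to tough score was 0.22 (quartiles -0.17 and 0.60), against 0.19 on the other autosomes. A tender score at least 2 times the tough score was found in 40 pairs (6.73%, 4.85 to 9.06%), against 7.52% over the series, and the opposite in 13 pairs (2.19%, 1.17 to 3.71%), against 1.82%. Both shares were near those of the series, but they depended on the peaks kept. With at least 2 times the lowest score they were 2.93% (4.77% on the other autosomes) and 0.532% (0.596%), and by counted reads the second was 0.945%. Across pairs the 2 scores had a Spearman correlation of 0.76 and a Pearson correlation of 0.78 on the log2 scale, a description over 594 pairs of the same 2 libraries. In the 529 pairs with counted reads in both groups the tender library held 14462 reads and the tough library 13957, or 50.9% tender, against 50.6% on the other autosomes. These reads are not corrected for depth. With reads divided by library depth, the median log2 ratio of tender to tough reads was 0.28, against 0.22 on the other autosomes. By this scaling a pair with equal reads in both groups also has 0.22, from the depth ratio of 1.165 alone. The median pair of the other autosomes thus had equal reads, and 0.22 is not a measured excess of tender reads. Because the tough library is the deeper one, equal reads give it a lower score. How far depth enters the score ratios was not tested beyond the read ratios given here and below.

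**Figure D4:**
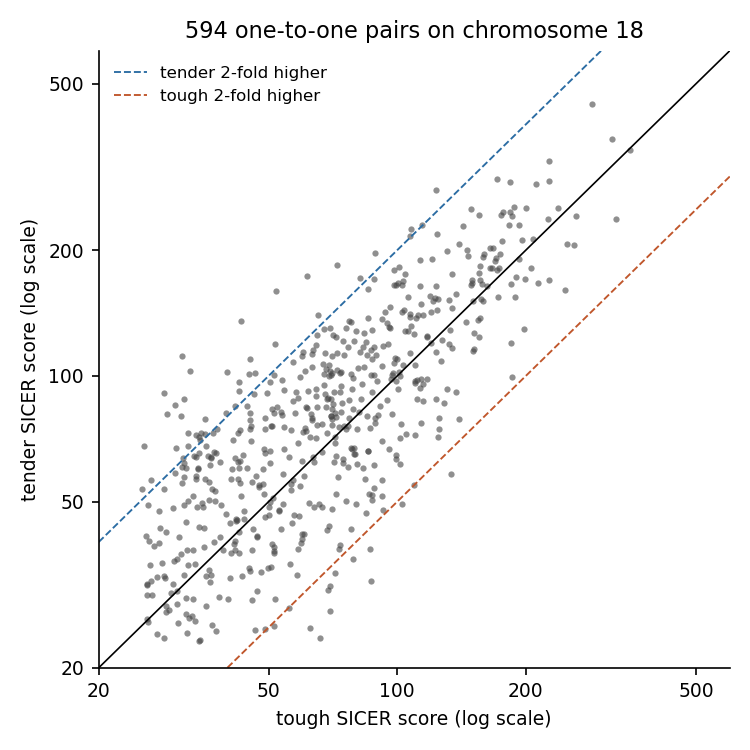
SICER score of the tender peak (vertical axis, log scale) against that of the tough peak (horizontal axis, log scale) for the 594 pairs on chromosome 18, with the line of equal scores and lines of a 2-fold difference. Pairs beyond the 2-fold lines number 40 with the higher tender score and 13 with the higher tough score.

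Of the 5 pairs with the highest tender to tough ratio, 3 lay within the last 0.5 Mb. From 65518601 to 65520600 the tender peak scored 111.3 and the tough peak 31.4, a ratio of 3.54, on 34 and 15 reads. From 65732201 to 65733400 the scores were 91.1 and 28.4 (28 and 13 reads), and from 65864801 to 65867200 they were 102.4 and 32.6 (35 and 15 reads). Further pairs lay from 55479001 to 55480400 (135.3 and 43.1, 40 and 16 reads) and from 54927601 to 54930200 (159.3 and 52.0, 50 and 22 reads). After division by the depth of each library, the read ratio of the first pair was 2.64 (95% interval 1.40 to 5.22), below its score ratio. The pair was picked by its score ratio and its reads were worked back from the same scores. The interval takes no account of that choice, so no conclusion is drawn from it.

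The pairs with the highest tough to tender ratio all lay between 46 and 57 Mb. From 56039801 to 56042800 the tough peak scored 65.9 and the tender peak 23.5, a ratio of 2.80, on 27 and 9 reads. This pair lies next to the strongest tough peak without overlap. Scores were 86.8 and 32.3 from 46037601 to 46041600 (33 and 12 reads), and 69.5 and 27.4 from 54066601 to 54069600 (29 and 10 reads). In these 3 pairs the tough peak was the longer by 2000 to 2600 bp. The remaining pairs lay from 46975201 to 46975800 (62.6 and 24.97, 20 and 9 reads) and from 50072201 to 50074800 (133.3 and 58.2, 48 and 24 reads). For the pair from 46975201 the depth-scaled read ratio was 1.91 with an interval of 0.830 to 4.76, which includes equal levels. This interval, too, takes no account of the choice of the pair by its score ratio.

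Along the chromosome the median log2 score ratio of pairs stayed at or above 0 in every 5 Mb step. It was lowest, at 0.00, between 20 and 25 Mb (14 pairs) and highest, at 0.53, between 40 and 45 Mb (21 pairs), where the tender score was higher in 18 pairs. The dense stretch from 55 to 60 Mb had a median of 0.07 over 85 pairs, and the step after it, from 60 to 65 Mb, 0.34 over 72 pairs. In the last 5 Mb of the chromosome the median was 0.38 over 95 pairs, against 0.20 over the other 499, and ranked 4th among the 29 autosomes. There 12 pairs (12.6%) had a tender score at least 2 times the tough score, against 28 (5.61%) in the rest of the chromosome. The last 5 Mb of the other autosomes had a median of 0.17 and 8.31% of such pairs. Peaks were also dense at this end, with 21.8 regions per Mb in the last 5 Mb against 8.24 on the others, and the last tender peak ended at 65993800. At the other end the first peaks lay at the very start of the numbering, from 401 to 1400 in the tender group (score 27.8, 11 reads) and from 1 to 1400 in the tough group (55.7, 20 reads), followed by 1.02 Mb without a peak.

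**Figure D5:**
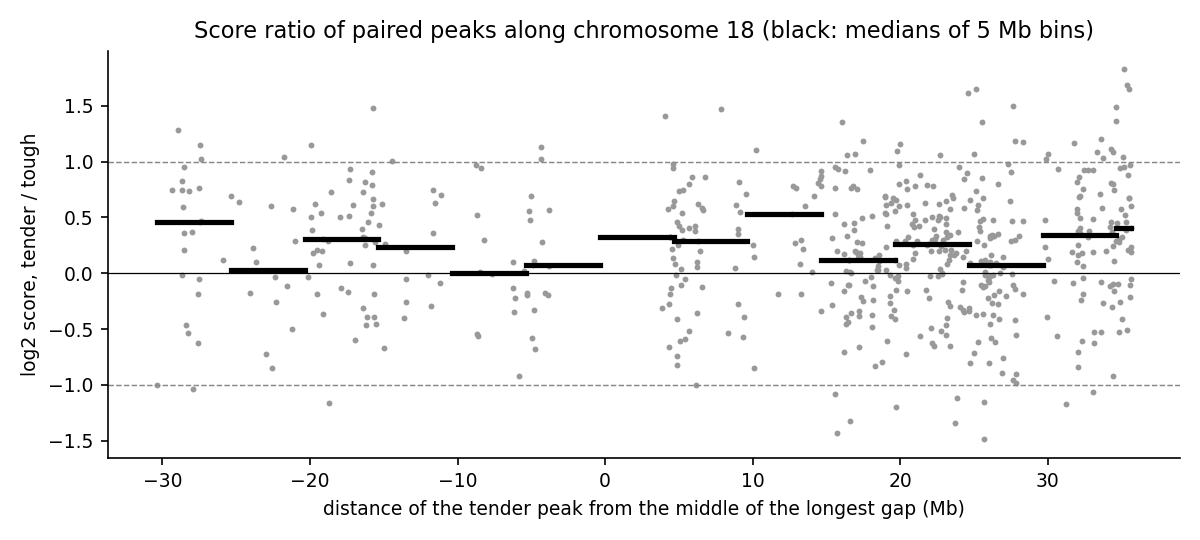
Log2 ratio of tender to tough SICER score (vertical axis, grey points) of the 594 pairs along chromosome 18 (horizontal axis, distance in Mb from the middle of the longest gap), with the median of each 5 Mb step in black and dashed lines at a 2-fold difference. Medians lie between 0.00 and 0.53, and pairs with the highest tender to tough ratios are seen at the right end.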

How the data were processed

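H3K4me3 was measured by ChIP-Seq in 1 pooled LD library per group, grouped by the sample labels. By the methods, the authors digested chromatin with micrococcal nuclease, aligned the reads to bosTau4 with Maq and called peaks with SICER 1.1 (windows of 200 bp, gaps of up to 400 bp, E-value of 100) without a control library. The authors deposited 2 peak lists per library, each with a SICER score per peak. One gives no build and was used here, and the other was called on bosTau4 and served as an alternative chosen after seeing the data. The bosTau4 lists hold 12452 tender and 11395 tough peaks, the totals that the authors report. The regions, measures and comparisons were chosen with earlier results of these data known.

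Peaks were merged at an overlap of at least 1 bp. The end of the last peak stood in for chromosome length, and regions were placed in bins by their centre. Shares were given with Clopper-Pearson intervals and set beside the other 28 autosomes. No test was run. Reads per peak were recovered from scores up to 180 within a tolerance of 1.5e-09. The total reads of a library are not in the files used here. For each group the 5 highest-scoring, 5 widest and 5 highest-scoring peaks without overlap were named, with the 5 largest score ratios in each direction and the 5 fullest bins, longest gaps and largest clusters. A few others, such as the peaks at the chromosome ends and gap edges, were named after their values were seen. Alternatives were a minimum of 2 times the lowest score, other overlaps, the same number of peaks per list, each list alone, other bins and cluster rules and read ratios. The computations, which were tested on simulated data, used numpy 2.4.6, scipy 1.17.1, pandas 2.3.3 and matplotlib 3.10.9 under Python 3.11.15.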

Additional observations from a re-analysis of the deposited data

How the results depend on the processing

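Of 67 alternative values for chromosome 18 under 18 settings, 43 lay within the interval of the value reported and 24 lay outside it. Only the proximal minus distal differences were able to change sign, and none of them did. Lying within that interval did not always mean a value close to the one reported. With at least 2 times the lowest score the proximal minus distal tender share fell to 5.30 points (-3.68 to 15.5). With an overlap of 50% the share of pairs at least 2-fold higher in the tough group fell to 1.20%. Both count among the 43. Some comparisons did turn. The ratio of regions per Mb to the other autosomes lay between 2.33 and 2.55 over 9 alternatives. Keeping only peaks with at least 2 times the lowest score gave a density ratio of 2.55, shares without overlap of 24.2% (tender) and 8.83% (tough), pairs at least 2-fold apart of 2.93% (tender higher) and 0.532% (tough higher), a median gap of 32900 bp, 10.9% of regions in clusters, 79.4% of regions in the distal part and a proximal minus distal tough share of 4.18 points. The tender share then lay above the 23.9% of the other autosomes instead of below them, and the tough 2-fold share below theirs (0.596%) instead of above, as it did in the bosTau4 lists (1.57% against 2.11%). An overlap of at least 50% of both peaks gave 34.3% and 29.4% without overlap. The same number of peaks per list gave 11.9% and 14.9%, with the tough share now the higher, 18.3% of regions in clusters and a proximal minus distal tender share of 3.19 points. The tender list alone gave a median gap of 26600 bp and 17.1% in clusters, and the tough list alone 26600 bp and 15.7%. Cluster gaps of 10 kb and 50 kb gave 7.46% and 61.0%, and clusters of at least 3 regions 44.5%. By reads, 0.945% of pairs were at least 2-fold higher in the tough group. Without the empty bins of the longest gap the fullest 10% of the bins came to fewer bins than the 7 used above, and their share was 26.8%. The cause of these moves was not tested. No paired analysis was possible because each group is 1 pooled library with no replicate number. At a median of 22 (tender) and 23 (tough) reads per peak, absence of the mark and a level under the calling limit cannot be told apart for a single peak.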

Other observations

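The bosTau4 peak lists gave much the same chromosome 18, with 822 regions from 748 tender and 696 tough peaks, 12.4 regions per Mb and the second highest density of the 29 autosomes. Of these peaks 132 tender and 94 tough ones were without overlap. The largest difference from the score lists was at the long empty stretch. In bosTau4 positions the gap ran from 26470001 to 31842800, 5.37 Mb, and ranked 12th of the 29 autosomes. It was ended by a single tender peak from 31842801 to 31844800, with a score of 23.2 on 10 reads, after which another 1.26 Mb was empty. In these lists the midpoint of the chromosome fell in that stretch of 1.26 Mb and not in the longest gap. The proximal minus distal difference in peaks without overlap was 10.2 points in the tender and 18.2 points in the tough group, each the highest signed value of the 29 autosomes. Without regard to sign 4 autosomes had a larger tender difference, all in the opposite direction, up to -19.6 points on chromosome 20. Clusters numbered 32 and the largest held 15 regions.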
